A study of Mus musculus with 9 samples.

Results

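The 40 genes described here are cell cycle genes that are highest in S phase (16 genes) or in G2 and mitosis (24 genes), out of 24296 genes measured in single cells of mouse knee joints. They were listed by name for their function, with earlier results of these data known, and all 40 were in the data. Cells were profiled with Seq-Well, which catches the polyadenylated RNA of single cells in small wells holding barcoded beads. The 9 mice were female, of the strain 129/Sve and 8 weeks old, and the whole left joint was taken 1 week after an injection into it. The 4 healthy mice (numbered 1 to 4) had been injected with phosphate-buffered saline. The 5 sick mice (numbered 1, 3, 4, 5 and 6) had antigen-induced arthritis, in which mBSA (methylated bovine serum albumin) is injected into the knee of a mouse sensitized to it beforehand. Per the labels, the arthritis was checked by immunohistochemistry. The labels give no genetic alteration for either group.

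A dividing cell copies its DNA in S phase and separates the copies in mitosis, and each step has its own set of transcripts. S-phase genes encode the helicase that opens replication origins, the polymerase clamp and the enzymes that make deoxynucleotides, whereas G2/M genes encode the mitotic kinases, the spindle motors, the kinetochore proteins and the ubiquitin ligase that ends mitosis. In bone marrow the early precursors of red cells and neutrophils divide, and division stops as they mature. The S-phase genes are textbook targets of E2F factors, and the G2/M genes of complexes that read the cell cycle homology region (CHR) and CCAAT boxes.

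Since members of each phase were described together, their promoter letters were examined first. RefSeq (GRCm38.p6) gave a window of 250 bases before to 50 after the start for 34 of the 40 members, with none used here for Mcm4, Gmnn, Ccna2, Aurkb, Tpx2 and Smc4. An E2F motif (TTTCCCGC, TTTCGCGC, TTTGCCGC or TTTGGCGC, on either strand) stood in the windows of 7 of 14 S members and 1 of 20 G2/M members, against 2.60% of all 27025 genes with a window. The CHR letters (TTTGAA or TTCGAA, on either strand) stood in 2 of 14 S members and 16 of 20 G2/M members, against 21.7% of all genes. CCAAT on either strand stood in 9 of 14 S members and 16 of 20 G2/M members, against 41.1% of all genes. Both CHR and CCAAT stood in 2 of 14 and 14 of 20, against 8.61%. The E2F motifs can overlap each other on opposite strands, and a match is a description of letters, not of binding. The 250 bases before the start of 4 members that carry the results below are printed 5′ to 3′ on the gene's strand, with the matches in capitals (ATTGG and TTCAAA are CCAAT and TTTGAA on the other strand). Mki67, Kif11 and Hmgb2 show the CHR and CCAAT pair of G2/M genes, and Mcm6 shows the E2F motifs of S genes. The start used for Mki67 lies inside its annotated span (chr7:135689784-135716450), so part of its printed bases does too.
Mki67 (chr7:135716380-135716629, minus strand): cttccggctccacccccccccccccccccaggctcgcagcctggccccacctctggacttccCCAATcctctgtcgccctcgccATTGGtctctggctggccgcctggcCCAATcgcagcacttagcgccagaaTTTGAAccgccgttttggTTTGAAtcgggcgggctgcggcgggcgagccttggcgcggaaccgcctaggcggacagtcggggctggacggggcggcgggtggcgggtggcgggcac
Kif11 (chr19:37376132-37376381, plus strand): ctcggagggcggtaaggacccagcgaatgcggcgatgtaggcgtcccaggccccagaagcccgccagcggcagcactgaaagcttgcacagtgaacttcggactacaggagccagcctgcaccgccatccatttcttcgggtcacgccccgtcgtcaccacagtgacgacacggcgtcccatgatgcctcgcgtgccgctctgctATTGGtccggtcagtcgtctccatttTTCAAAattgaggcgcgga
Hmgb2 (chr8:57511593-57511842, plus strand): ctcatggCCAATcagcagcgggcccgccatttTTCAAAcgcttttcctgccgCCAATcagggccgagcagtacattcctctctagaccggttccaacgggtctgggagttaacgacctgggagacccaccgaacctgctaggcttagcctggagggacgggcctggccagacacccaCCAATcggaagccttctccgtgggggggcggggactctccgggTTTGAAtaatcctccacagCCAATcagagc
Mcm6 (chr1:128359706-128359955, minus strand): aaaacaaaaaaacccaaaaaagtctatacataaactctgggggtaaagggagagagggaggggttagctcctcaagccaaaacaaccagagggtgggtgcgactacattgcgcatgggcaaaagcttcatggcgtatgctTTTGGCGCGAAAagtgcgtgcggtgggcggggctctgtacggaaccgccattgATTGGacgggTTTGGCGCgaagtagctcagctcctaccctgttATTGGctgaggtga

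After filtering, 16749 cells were kept, 4549 from healthy and 12200 from sick mice, with 896930 to 4675909 counts per mouse. Members made up 0.709% of all counts, and 85.9% of cells had a count of at least 1 of them. Cells of healthy mice held 5.48% to 10.3% mitochondrial counts and 2.38% to 6.13% counts of ribosomal RNA-like genes, against 3.09% to 6.05% and 0.901% to 2.20% in sick mice. Haemoglobin transcripts took 16.95% to 39.05% of the counts of healthy mice and 10.01% to 27.4% of those of sick mice. Healthy mice 2, 3 and 4 had the most haemoglobin and a median of 273 to 290 genes per cell, below the 357 to 402 of the other 6. The part of these differences in the results below was not tested beyond the values given without those 3 mice. The labels give no sequencing batch, so batch and group cannot be told apart, and 8 barcodes occurred in more than 1 mouse.

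A cell was called cycling when it held 3 or more summed counts of Mki67, Top2a, Cenpf and Cenpe. Mki67 encodes the protein that coats mitotic chromosomes, Top2a the topoisomerase that untangles DNA, and Cenpf and Cenpe kinetochore proteins. By this rule 5283 of 16749 cells (31.5%) were cycling, and 4490 of those (84.99%) held counts of at least 2 of the 4 genes. Mki67 alone reached 3 counts in 61.4% of them. The other members were higher in cycling cells too, as a description, since the rule selects deeper cells (median 1274 counts against 778). Of the 20 G2/M members that the rule does not use, all had a higher mean CPM in cycling cells, with a median ratio of 2.93. Of the 16 S members, 15 did, with a median ratio of 1.96, and Ung, the uracil-DNA glycosylase, did not (4.38 CPM in cycling and 5.18 in other cells). Among members with at least 100 counts, 28 of 35 (80%) were at least 2-fold higher, against 6.19% of all other genes. Cell type differences enter that ratio. Within gates, 4 of 25 members with such counts were 2-fold higher in granulocyte progenitors (0.551% of all other genes). In early erythroid cells 4 of 20 were (2.11%), and in the B lineage 3 of 9 (2.45%). In immature neutrophils 22 of 32 were, in haemoglobin-rich cells 14 of 19 and in eosinophils 3 of 4 (5.88%, 7.86% and 2.85%). Mature neutrophils had 1 of 2 (8.24%), and erythroblasts 20 of 29, where 20.5% of all other genes were 2-fold higher too. The kinesin gene Kif20b had 175 CPM in cycling and 46.3 in other cells. Rrm2, the small subunit of ribonucleotide reductase, had 303 and 100.3 CPM, the largest ratio of an S member. In granulocyte progenitors the S members went a different way: 6 of 16 were higher in cycling cells, against all 20 G2/M members. There the cycling cells had a median of 2696 counts and the others 1125.

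The next question was which cells cycled. Cells were gated by marker genes that hold no member: 12384 cells (73.9%) passed 1 gate, and 8 gates held at least 20 cells in at least 3 mice of each group. Averaged over mice, the cycling share was highest in the erythroblast gate (markers such as Slc4a1), at 80.9% ± 10.2 (SD, n = 9). Early erythroid cells (Car1, Klf1) followed at 62.7% ± 17.8 (n = 8), and granulocyte progenitors (Mpo, Elane) at 42.1% ± 8.08 (n = 9). The B lineage gate, led by the pre-B genes Vpreb1 and Igll1, had 41.4% ± 11.5 (n = 8). Eosinophils (Prg2, Epx) had 34.2% ± 10.3, immature neutrophils (Camp, Ltf) 25.4% ± 5.07 and haemoglobin-rich cells 24.5% ± 5.80 (n = 9 each). Mature neutrophils (Retnlg, Cxcr2) were lowest, at 6.55% ± 3.08 (n = 8). Monocytes (F13a1, Ccr2) were left out of this order, since only 2 healthy mice held at least 20 of them. Their share was 37.4% ± 4.21 (n = 7).

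Of 7 neighbour pairs in this order, the share differed within mice in 2. Erythroblasts exceeded early erythroid cells by 17.003 ± 9.41 percentage points (SD, higher in 8 of 8 mice). The exact sign-flip permutation p was 0.00781, the smallest 8 mice can give (adjusted 0.0273). Haemoglobin-rich cells exceeded mature neutrophils by 18.4 ± 4.93 points (8 of 8 mice), with the same exact p. Early erythroid cells were above granulocyte progenitors in 6 of 8 mice, by 19.5 ± 20.9 points, which did not pass after adjustment (exact permutation test, adjusted p 0.0911). The other 4 neighbours had adjusted p of 0.150 to 0.898 by the same exact test, so their order was not resolved. Of these 4, another form of the rule let 2 pass: eosinophils exceeded immature neutrophils by 17.9 points at a minimum of 2 summed counts (8 of 9 mice, exact permutation test, adjusted p 0.0182), and immature neutrophils exceeded haemoglobin-rich cells by 4.27 points without Mki67 in the rule (8 of 9 mice, exact permutation test, adjusted p 0.0273).

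The order changed with depth. Each cell was also thinned to 500 counts, with 1764 shallower cells left out. The mean shares were then 56.4% in erythroblasts, 24.02% in the B lineage, 23.6% in early erythroid cells, 17.2% in eosinophils, 11.3% in haemoglobin-rich cells, 9.92% in immature neutrophils, 7.97% in granulocyte progenitors and 3.43% in mature neutrophils. Granulocyte progenitors, the deepest gate with a median of 1589 counts, thus fell from above 5 of the other gates to above mature neutrophils alone. The B lineage gate (median 732 counts) exceeded them by 17.3 points (adjusted p 0.0365, exact permutation test). The thinned difference was 30.8 points between erythroblasts and early erythroid cells and 8.29 points between haemoglobin-rich cells and mature neutrophils. Monocytes, outside the order, had a thinned mean share of 17.99%.

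Free RNA in a well can also meet the rule, and its amount was not measured here. Gates of other tissues served as a reference, and whether they held cycling cells was not tested. Pooled over mice, the rule was met by 13.9% of macrophages (median 988 counts), 17.98% of connective tissue cells (1103) and 19.6% of skeletal muscle cells (787), and after thinning by 5.16%, 3.73% and 13.6%. Mature neutrophils lay below all 3 with all counts and after thinning (6.81% and 3.31% pooled, median 654.5 counts). Immature neutrophils of sick mice 5 and 6 (19.3% and 17.9%) and haemoglobin-rich cells of healthy mice 1 and 2 (19.1% and 15.3%) lay below the muscle gate. After thinning, the pooled shares of granulocyte progenitors (6.72%), immature neutrophils (7.28%) and haemoglobin-rich cells (9.92%) lay below the muscle gate as well, and above those of macrophages and connective tissue. Other small gates were not taken as references, and whether they held cycling cells was not tested either. T or NK cells had 24.5% pooled and 13.7% thinned, plasma cells 17.2% and 7.41%, and plasmacytoid dendritic cells 14.96% and 9.90%. Early haematopoietic progenitors had 28.05% and 11.8%, mast cells or basophils 30.2% and 8.16%, and 16 endothelial cells 25% and 8.33%. Thinned, granulocyte progenitors and immature neutrophils lay below all of these. Shares at or under a reference are not read as cycling, and for them the word means below only that cells met the rule.

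**Figure D1:**
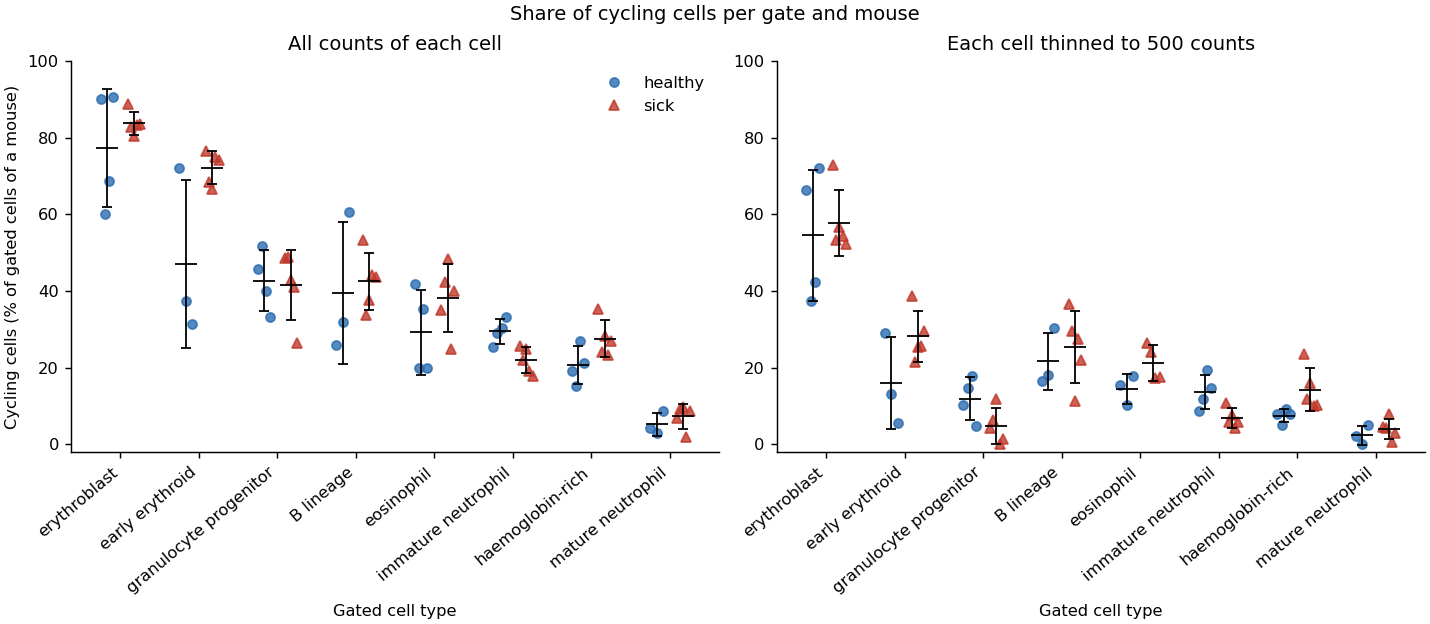
Cycling cells as a percentage of the gated cells of each mouse, with all counts (left) and with each cell thinned to 500 counts (right). Points are mice with at least 20 cells (circles healthy, triangles sick), and black marks are means with SD; erythroblasts average 80.9% and mature neutrophils 6.55% with all counts.

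The share of cycling cells was then compared between sick and healthy mice. Over all cells it was 33.0%, 24.5%, 32.5% and 33.9% in healthy mice 1 to 4, and 35.1%, 30.0%, 38.4%, 27.0% and 31.3% in sick mice 1, 3, 4, 5 and 6. The groups overlapped, at 30.97% ± 4.32 (SD, n = 4) and 32.4% ± 4.47 (n = 5), with an exact permutation p of 0.667 (two-sided, smallest possible p 0.0159). None of the 8 gates passed after adjustment over them. Immature neutrophils came closest. Their share was 25.4%, 29.2%, 30.3% and 33.3% in healthy mice and 25.6%, 22.2%, 25.0%, 19.3% and 17.9% in sick mice. All sick mice but mouse 1 were below every healthy mouse. Sick mice 5 and 6 also lay below the pooled share of the muscle reference (19.6%). The means were 29.6% ± 3.27 (n = 4) and 22.0% ± 3.40 (n = 5), a difference of -7.56 points with an exact permutation p of 0.0317 (adjusted 0.254). Without healthy mice 2, 3 and 4 the difference was -3.42 points, with no test.

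Haemoglobin-rich cells, which hold at least 40% haemoglobin counts, went the other way. They had 19.1%, 15.3%, 27.0% and 21.4% cycling cells in healthy mice and 35.3%, 24.2%, 28.2%, 23.3% and 27.0% in sick mice. The means were 20.7% ± 4.92 (n = 4) and 27.6% ± 4.76 (n = 5), with overlap between the groups (exact permutation p 0.0794, adjusted 0.286). Thinned to 500 counts, they were 7.53% ± 1.72 and 14.3% ± 5.69 without overlap (exact permutation p 0.0159, adjusted 0.127). Healthy mice 1 and 2 lay below the pooled muscle reference (19.6%) with all counts. The thinned pooled share of this gate (9.92%) lay below that reference too (13.6%), so these shares are not read as cycling. With a gate of 5 marker counts and deviance 20, which left 3 gates to adjust over, both differences passed: -7.20 points in immature neutrophils and 13.5 points in haemoglobin-rich cells (exact permutation test, adjusted p 0.0476 for each). The haemoglobin-rich class is wider there, since it takes cells that pass no other gate: of 3312 cells, 1000 (30.2%) were not in it before, 472 of them erythroblasts by the main gate, and 49.4% of those 1000 were cycling. That gate setting was seen together with 3 others before the main one was taken.

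Early erythroid cells had 72.0%, 37.5% and 31.4% cycling cells in healthy mice 1 to 3, and 76.5%, 68.5%, 66.7%, 75.0% and 74.2% in the sick mice. Healthy mouse 1 sat within the sick range and the other two far below it. The difference of 25.2 points had an exact permutation p of 0.107 (adjusted 0.286, smallest possible p 0.0357), and against healthy mouse 1 alone it was 0.184 points. Erythroblasts had 90.1%, 60%, 68.8% and 90.6% in healthy mice and 88.7%, 82.8%, 80.4%, 83.4% and 83.6% in sick mice. The sick mice lay inside the healthy range (exact permutation p 0.381). Granulocyte progenitors had 45.8%, 51.9%, 40% and 33.3% in healthy and 48.6%, 49%, 42.9%, 41.1% and 26.6% in sick mice. Eosinophils had 41.9%, 20%, 35.4% and 20% in healthy and 35%, 42.4%, 48.5%, 25% and 40% in sick mice. The B lineage had 25.9%, 32% and 60.5% in healthy mice 1, 2 and 4, and 53.4%, 33.8%, 37.8%, 44.2% and 43.6% in sick mice. The groups overlapped in all 3. The exact permutation p was 0.841 in granulocyte progenitors, 0.750 in the B lineage, 0.464 in mature neutrophils and 0.206 in eosinophils.

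Members differed in where they were highest. By mean CPM over mice, without further scaling, 16 members were highest in erythroblasts, 12 in early erythroid cells, 10 in the B lineage, 1 in granulocyte progenitors and 1 in eosinophils, and 35 were lowest in mature neutrophils. Mki67 had 4935 CPM in erythroblasts, 1746 in early erythroid cells, 1564 in the B lineage and 430 in mature neutrophils. Cenpf had 756 CPM in erythroblasts and 65.3 in mature neutrophils. Of the 24 G2/M members 15 were highest in erythroblasts, 6 in the B lineage and 2 in early erythroid cells. Of the 16 S members 10 were highest in early erythroid cells, 4 in the B lineage and 1, Rrm2, in erythroblasts. Dut, the dUTPase that keeps uracil out of DNA, had 491 CPM in early erythroid cells, 124 in erythroblasts and 61.9 in mature neutrophils. Mcm4, a subunit of the replicative helicase, had 193 CPM in early erythroid cells and 97.8 in erythroblasts. Hells, a chromatin remodeller of replicating DNA, was highest in the B lineage at 199 CPM, against 13.7 in mature neutrophils. Top2a was also highest there, at 1362 CPM, with 1134 in erythroblasts. Haemoglobin takes up a large part of the counts in some gates, a median over mice of 42.7% in erythroblasts and 57.8% in haemoglobin-rich cells against 16.9% in early erythroid cells and 7.63% in granulocyte progenitors, and lowers every other CPM there.

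**Figure D2:**
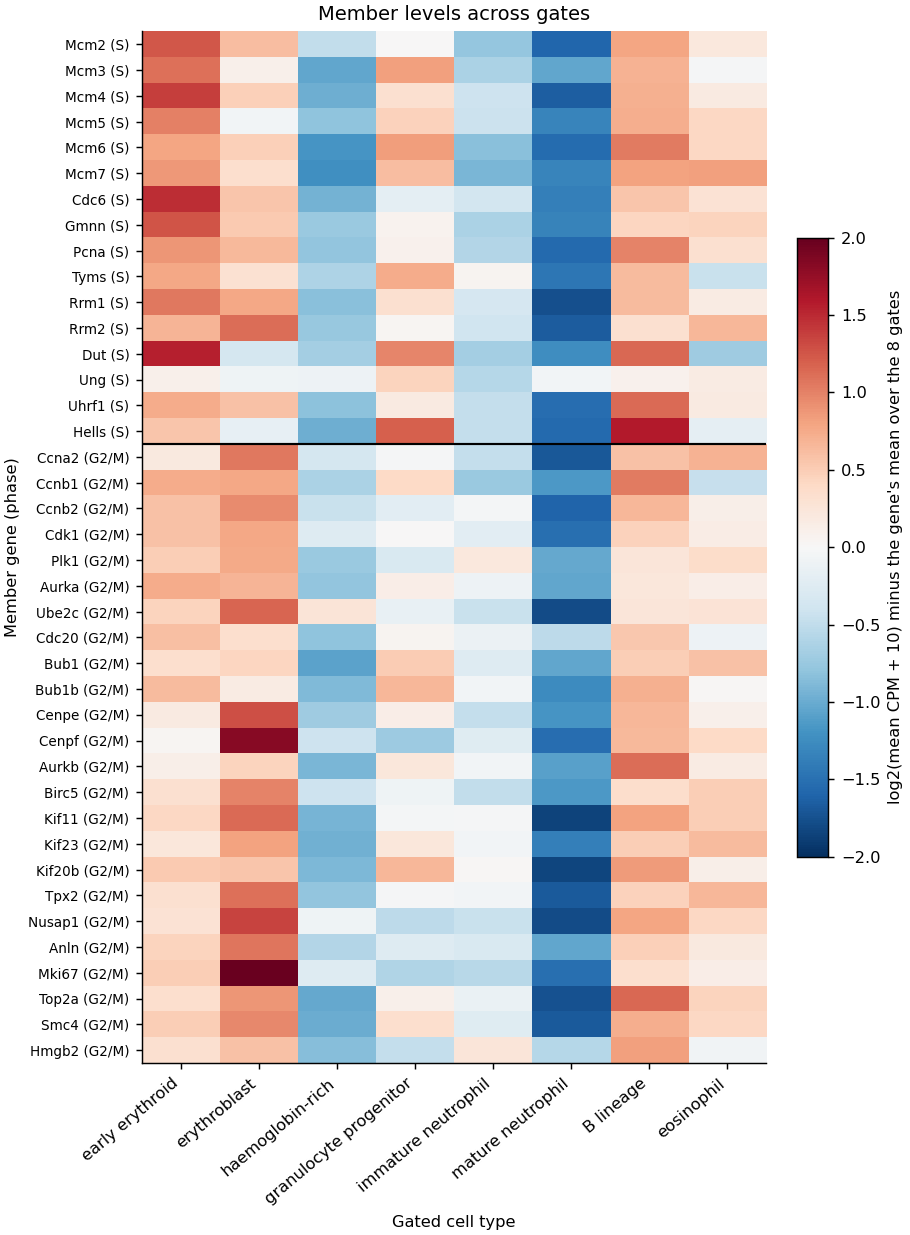
Each of the 40 members (rows, S above the line and G2/M below) in the 8 gates (columns), as log2(mean CPM + 10) minus the gene's mean over the gates. Red is above and blue below the gene's own mean; 35 members are lowest in mature neutrophils.

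The balance of the phases does not depend on such scaling, since it is a ratio within a gate. Summed over members, S counts were 0.420 of G2/M counts in early erythroid cells (SD 0.0476, n = 8) and 0.156 in erythroblasts (SD 0.0309, n = 9). The ratio ran from 0.362 to 0.504 over mice in early erythroid cells and from 0.107 to 0.211 in erythroblasts, without overlap. In CPM, the S sum was 3006 and 1993 in these gates and the G2/M sum 7199 and 13200. The ratio was 0.414 in granulocyte progenitors, 0.297 in the B lineage, 0.251 in eosinophils, 0.213 in haemoglobin-rich cells, 0.208 in mature neutrophils and 0.204 in immature neutrophils. A few abundant genes weigh on these sums. With 18 G2/M members, leaving out the 4 rule genes, Smc4 and Hmgb2, the ratio was 1.55 in early erythroid cells (1.35 to 1.83 over mice) and 0.707 in erythroblasts (0.484 to 1.06), again without overlap. It was 1.42 in granulocyte progenitors, 1.22 in the B lineage, 1.05 in mature and 0.809 in immature neutrophils, 0.869 in eosinophils and 0.761 in haemoglobin-rich cells. The value of mature neutrophils rests on few counts, as few as 6 S and 6 G2/M counts in healthy mouse 3. Over mice it ran from 0.822 to 1.56, overlapping the 0.598 to 1.12 of immature neutrophils. In both forms the mean ratio was higher in the early gate than in the later gates of the erythroid and neutrophil lineages, whereas mature and immature neutrophils lay level in the first form only. Healthy and sick mice had 0.439 ± 0.0565 and 0.409 ± 0.0441 in early erythroid cells, and 0.157 ± 0.0444 and 0.155 ± 0.0209 in erythroblasts.

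**Figure D3:**
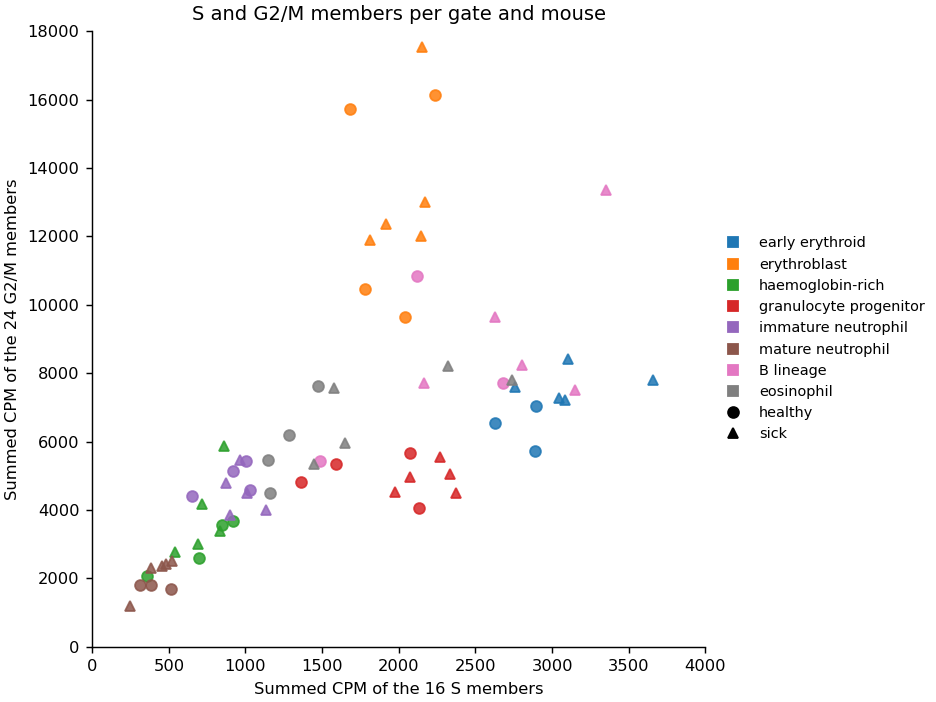
Summed CPM of the 16 S members (x axis) against the 24 G2/M members (y axis); each point is a gate of 1 mouse, coloured by gate, with circles for healthy and triangles for sick mice. Erythroblasts have the highest mean G2/M sum (13200 CPM) and early erythroid cells the highest mean S sum (3006 CPM).

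Neighbouring stages of a lineage were compared within mice by edgeR over all genes, with the mouse as a block, a comparison chosen after the gates had been seen. Values are TMM-scaled CPM, a scaling that sets the bulk of genes level between gates. Between early erythroid cells and erythroblasts, 30 members were tested in 8 mice, and 20 were higher and 1 lower in erythroblasts, against 39.0% of 1340 tested genes higher and 34.9% lower. All 18 tested G2/M members were among the higher ones. Cenpf, Mki67 and Cenpe are genes of the cycling rule, so their values are not independent of the cycling shares above and add no support to them. Cenpf rose from 106 to 316 CPM (median 218) to 854 to 1856 CPM (median 1178), with no overlap. Its log2 fold change was 2.44 ± 0.15 (SE, edgeR adjusted p 1.18e-16, higher in 8 of 8 mice). Mki67 went from 1283 to 2230 CPM (median 1945) up to 5471 to 10792 CPM (median 7903), a log2 fold change of 2.11 ± 0.16 in 8 of 8 mice. The spindle gene Nusap1 rose by 1.83 and Cenpe by 1.74. Ube2c, the ubiquitin-conjugating enzyme of the anaphase-promoting complex, rose by 1.60 in 7 of 8 mice, and Tpx2, the activator of Aurora A on the spindle, by 1.53.

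The S members were divided in this step. Of 12 tested, Rrm2 (1.11) and Pcna, the polymerase clamp (0.43), were higher, Dut was lower and 9 did not pass. Dut fell in 8 of 8 mice, from 367 to 703 CPM (median 513) to 154 to 335 CPM (median 195), a log2 fold change of -1.23 ± 0.16 (edgeR adjusted p 7.24e-09). Scaling set how many members were called: by library totals alone, without TMM, 6 were higher and 11 lower. Called in the same direction under both were Ube2c, Tpx2 and Nusap1 with the rule genes Cenpe, Cenpf and Mki67, all higher, and Dut, lower. Pcna was called higher with TMM and lower without. Without TMM, Cenpf had a log2 fold change of 1.38 and Mki67 1.11. Of the tested members, 11 passed the count filter in both gates. The rest passed through 1 gate, so the counts describe the members and support nothing about them.

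From granulocyte progenitors to immature neutrophils, 23 members were tested in 9 mice, and 10 G2/M members were higher and 2 S members lower, against 42.0% of 1870 tested genes higher and 32.1% lower. Hmgb2, a chromatin protein that bends DNA, rose from 468 to 801 CPM (median 676) to 1509 to 2393 CPM (median 1896). The ranges did not overlap, and the log2 fold change was 1.48 ± 0.10 in 9 of 9 mice (edgeR adjusted p 5.7e-18). Dut fell by 0.88 and Mcm6, another helicase subunit, by 0.78 on the log2 scale, each in 9 of 9 mice. Without TMM, 1 member was higher (Hmgb2, 0.46) and 17 lower. Hmgb2, Dut and Mcm6 kept their direction, while Mki67, Top2a, Tpx2 and Ube2c were called higher with TMM and lower without. The direction of those 4 therefore rests on the scaling. As in the other steps, a member could pass the count filter through 1 gate alone, so the counts describe the members and support nothing about them.

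From immature to mature neutrophils all 21 tested members were lower in 8 mice, with and without TMM, against 25.0% of 2222 tested genes lower and 25.5% higher. Top2a went from 464 to 767 CPM (median 607) to 83.7 to 328 CPM (median 186), a log2 fold change of -1.42 ± 0.15 (edgeR adjusted p 9.26e-21, lower in 8 of 8 mice). Smc4, a condensin subunit, fell by 1.27, Mki67 by 0.83 and Hmgb2 by 0.77, each in 8 of 8 mice. The cyclin Ccnb2 fell by 2.00 and Kif20b by 2.25. Only Mki67, Smc4 and Hmgb2 passed the count filter in both gates. The other 18, Top2a among them, passed through immature neutrophils, where they are high, so their direction was favoured by the filter. Their p values therefore support nothing about them, and Top2a and Mki67 are also genes of the cycling rule.

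**Figure D4:**
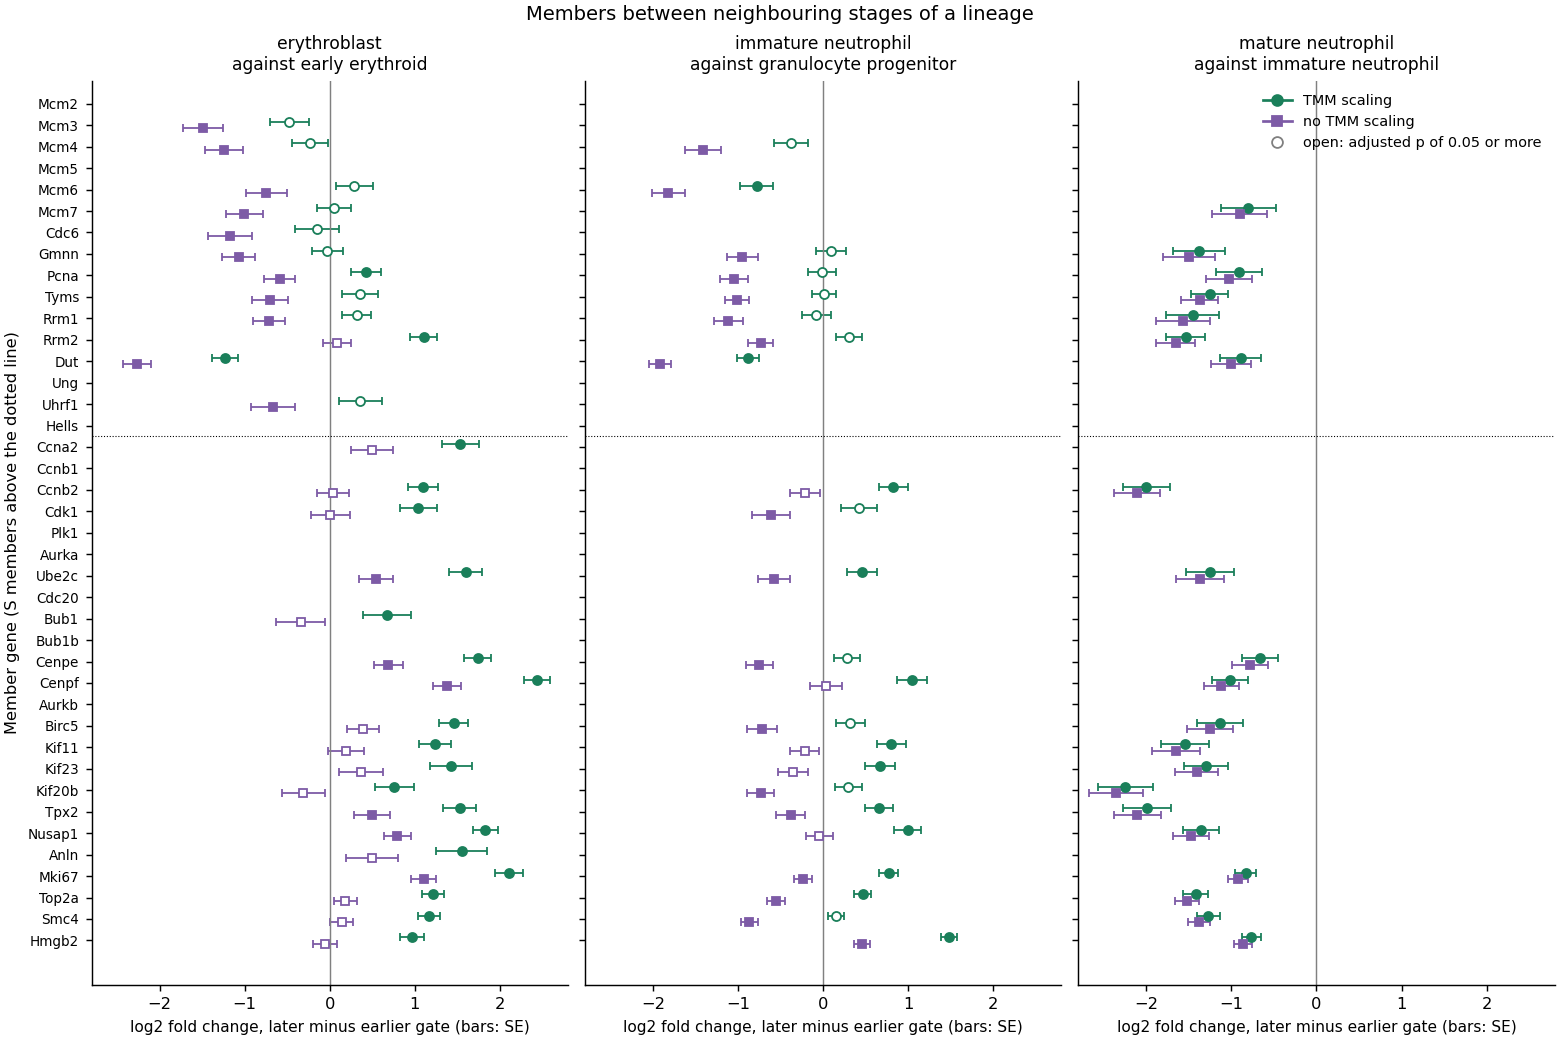
The log2 fold change (x axis, bars SE) of each tested member between neighbouring gates, with TMM scaling (green circles) and without (purple squares); filled symbols passed an adjusted p of 0.05. With TMM, G2/M members lie to the right in erythroblasts; all tested members lie to the left in mature neutrophils under both scalings.

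In the whole joint, sick and healthy mice were compared by edgeR on counts summed per mouse. In such sums, fewer cells of a type and less RNA per cell cannot be told apart. The make-up of the joint moved with the group: immature neutrophils were 10.2% ± 8.31 (SD, n = 4) of the cells of healthy and 24.97% ± 4.70 (n = 5) of those of sick mice, and haemoglobin-rich cells 26.3% ± 14.9 and 8.64% ± 3.92. The part of this in the values below was not tested. Of 10323 genes tested, 97 (0.94%) were called, and of 39 members tested none was (Ung did not pass the count filter). At an unadjusted p under 0.05, 1 member passed, against 13.8% of all genes. The members leaned lower: 30 had a log2 fold change below 0, against 52.0% of all genes, and their median was -0.13 against -0.02. This lean turned with the scaling. Without TMM 34 of the 39 members were above 0, with a median of 0.19, while 79.1% of all genes were above 0 with a median of 0.29. The members' median lay below that of all genes under both scalings. TMM factors were 1.18, 0.888, 0.745 and 0.776 in healthy mice 1 to 4 and 0.959 to 1.25 in sick mice.

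Kif11, the kinesin that pushes the spindle poles apart, was the member with the smallest p. It had 137, 137, 194 and 195 CPM in healthy mice and 123, 79.4, 126.03, 84.8 and 103 in sick mice. All sick mice were below all healthy mice, as for 2.01% of tested genes. No other member was without overlap, and none was higher in all sick mice, as 2.85% of tested genes were. The log2 fold change was -0.69 ± 0.18 (SE, edgeR adjusted p 0.0974). DESeq2 gave an adjusted p of 0.0284, and edgeR without healthy mouse 1 gave 0.0483, the only mouse whose omission made it pass. Without TMM the value was -0.34 (edgeR adjusted p 0.391), and without healthy mice 2, 3 and 4 it was -0.40, a value against a single healthy mouse, with no test.

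All 6 members for the spindle and cytokinesis were below 0, with a median of -0.26, and none was called. Nusap1, with the highest count of them, had 206, 212, 301 and 306 CPM in healthy mice and 214, 156, 235, 190 and 253 in sick mice. The groups overlapped (log2 fold change -0.29, edgeR adjusted p 0.483). All 6 checkpoint and kinetochore members were below 0 as well, with a median of -0.17. Cenpf had 241, 194, 271 and 334 CPM in healthy and 205, 175, 249.2, 190 and 220 in sick mice (-0.33, edgeR adjusted p 0.394). Cenpe had 187, 180, 253 and 258 CPM in healthy and 179, 141, 199, 168 and 192 in sick mice (-0.32, edgeR adjusted p 0.378). For both, healthy mice 3 and 4 lay above every sick mouse and healthy mice 1 and 2 within the sick range.

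Among the 4 chromosome structure members, 3 were below 0. Mki67 had 1239, 1328, 2118 and 2017 CPM in healthy mice and 1197, 918, 1584, 1130 and 1483 in sick mice. Its values overlapped, with healthy mice 3 and 4 the highest of all (-0.41 ± 0.20, edgeR adjusted p 0.391). Top2a had 617, 567.98, 773 and 861 CPM in healthy and 674, 537, 687, 539 and 588 in sick mice (-0.22, edgeR adjusted p 0.559). Of the 8 cyclins, kinases and members of the anaphase-promoting complex, 5 were below 0. Cdk1, the kinase that drives mitosis, had 61.2, 76.9, 98.8 and 93.3 CPM in healthy and 65.8, 63.5, 80.6, 60.3 and 66.0 in sick mice (-0.29, edgeR adjusted p 0.457). Ube2c had 127, 104, 180 and 121 CPM in healthy and 98.5, 113, 101.3, 118 and 146 in sick mice (-0.20, edgeR adjusted p 0.646). Neither separated the groups. Without healthy mouse 3 the fold change of Ube2c was -0.018, that of Cdk1 -0.18 and that of Mki67 -0.27. Without healthy mouse 4 that of Top2a was -0.10, that of Cenpf -0.18 and that of Nusap1 -0.19.

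The S members were split more evenly, with 5 above and 10 below 0 and a median of -0.08. Of 9 for origin licensing and replication, 6 were below 0. Pcna had 109, 146, 186 and 164 CPM in healthy and 98.5, 107, 120, 127 and 156 in sick mice (-0.31, edgeR adjusted p 0.456). Of 4 for nucleotide supply, 3 were below 0. Rrm1, the large subunit of ribonucleotide reductase, had 93.7, 124, 150 and 161 CPM in healthy and 94.1, 93.3, 112, 96.7 and 123 in sick mice (-0.35, edgeR adjusted p 0.381). Rrm2 had 141, 230, 257 and 230 CPM in healthy and 160, 152, 223, 165 and 215 in sick mice (-0.23, edgeR adjusted p 0.621). In both, healthy mouse 1 lay at the lower end of the sick range or below it. Hells went the other way, with 68.0, 44.9, 47.9 and 70.9 CPM in healthy and 67.5, 59.6, 65.0, 69.1 and 88.5 in sick mice (0.26, edgeR adjusted p 0.558). Leaving out 1 mouse moved these values too. Without healthy mouse 3, Pcna was at -0.19 and Rrm2 at -0.12. Omitting healthy mouse 1 put Rrm2 at -0.39, and omitting healthy mouse 4 put Rrm1 at -0.23. Hells was at 0.17 when healthy mouse 2 was dropped and at 0.16 when sick mouse 6 was.

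**Figure D5:**
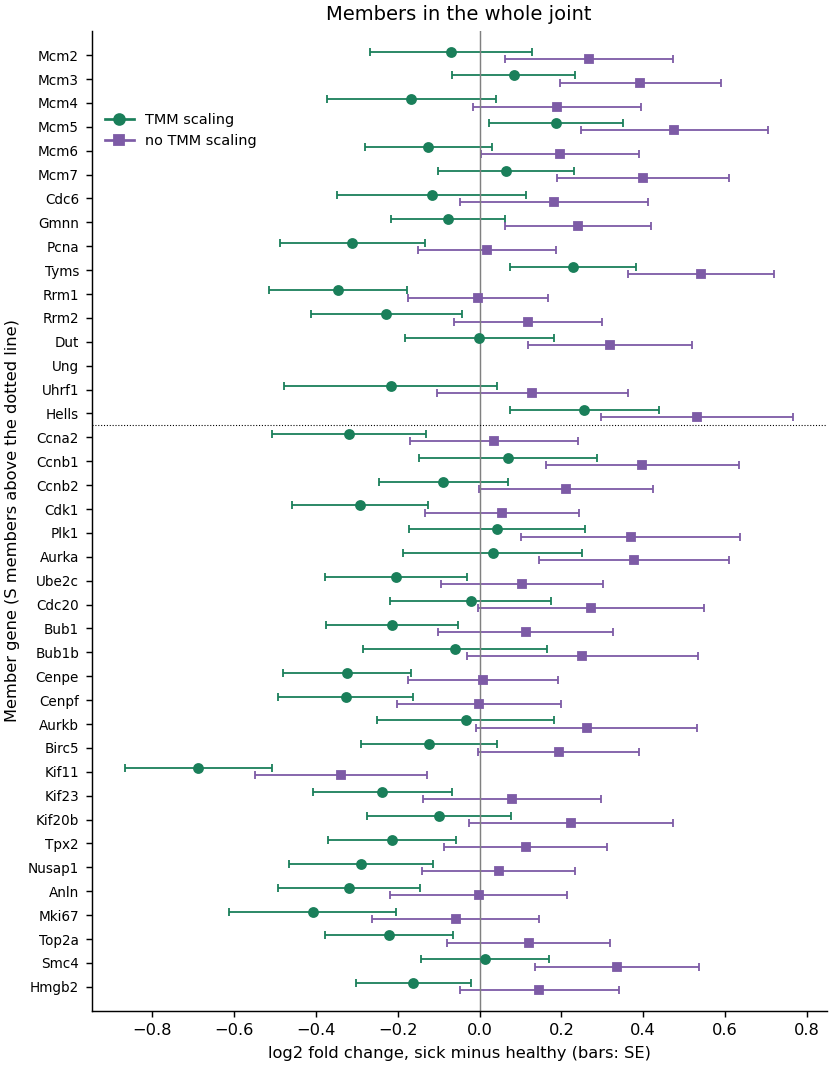
The log2 fold change of sick against healthy mice (x axis, bars SE) for the 39 tested members in the whole joint, with TMM scaling (green circles) and without (purple squares). Kif11 lies lowest at -0.69 with TMM, and 34 members lie above 0 without it.

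Within the gates no member was called, by edgeR or by DESeq2. The share of all tested genes that edgeR called was 0.379% in granulocyte progenitors (29 members tested), 0.729% in immature neutrophils (35), 0.417% in mature neutrophils (6) and 0.474% in the B lineage (18). It was 0.221% in early erythroid cells (30), 1.53% in erythroblasts (30), 5.46% in haemoglobin-rich cells (28) and 0.253% in eosinophils (7). At an unadjusted p under 0.05, 5 of 29 members passed in granulocyte progenitors (background 10.9%): Mcm4 above 0 and the kinesins Kif11, Kif23 and Kif20b with Mki67 below. Kif20b had 236, 393, 270 and 199 CPM in healthy and 162, 163, 169, 150 and 94.7 in sick mice, without overlap (-0.84, edgeR adjusted p 0.276). It was 1 of 2 members without overlap and lower there, with Kif23, as were 1.51% of all tested genes. In immature neutrophils 6 of 35 passed (background 10.5%), with Gmnn and Hells above 0 and Plk1, Cenpf, Anln and Mki67 below.

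Mki67 in immature neutrophils had 726, 1221, 1393 and 1378 CPM in healthy and 978, 672, 881, 599 and 632 in sick mice (-0.61 ± 0.20, edgeR adjusted p 0.270). Healthy mouse 1 lay within the sick range and the other 3 above it. Mki67 is a gene of the cycling rule, so these values are not independent of the cycling share of immature neutrophils. Gmnn, which encodes the licensing inhibitor geminin, had 63.9, 28.1, 19.9 and 65.6 CPM there in healthy and 103, 87.2, 74.8, 94.9 and 73.1 in sick mice, without overlap (0.74, edgeR adjusted p 0.417). Gmnn and Dut were the 2 members without overlap and higher there, as were 3.06% of all tested genes. In mature neutrophils Smc4 was 125, 178 and 202 CPM in 3 healthy mice and 304, 397, 491, 259 and 425 in sick mice, also without overlap (1.29 ± 0.41, edgeR adjusted p 0.229; unadjusted background 10.4%). It was the 1 member of 6 without overlap there, against 6.74% of all tested genes higher without overlap. In early erythroid cells Tpx2 was lower without overlap, as 2.71% of tested genes were, and Cenpf and Mcm7 higher, as 4.15% were. No member was without overlap in the other 4 gates, where 1.77% to 4.03% of tested genes were in each direction. Kif11 in erythroblasts had 365, 388, 322 and 467 CPM in healthy and 328, 201, 210, 274 and 225 in sick mice. Only sick mouse 1 reached the healthy range (-0.65 ± 0.22, edgeR adjusted p 0.214; background 11.3%). Mki67 in haemoglobin-rich cells had a log2 fold change of 0.54 (edgeR adjusted p 0.235; background 20.5%). Tpx2 in early erythroid cells had -0.995 (background 7.79%), Tyms and Cenpf in the B lineage 1.06 and -0.92 (10.6%), and Hmgb2 in eosinophils -0.64 (13.4%).

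Other cell cycle genes outside the list were read in the same whole-joint edgeR test. Of 28 further S genes, 11 were above and 17 below 0 (median -0.05), of 32 further G2/M genes 7 and 25 (median -0.12), and of 28 tested regulators 11 and 17 (median -0.05). None was called by edgeR. At an unadjusted p under 0.05, 3 of the S genes, 2 of the G2/M genes and 4 of the regulators passed, shares near or below the 13.8% of all genes, and DESeq2 called 1 gene, Rb1. Rb1, the retinoblastoma gene that restrains entry into S phase, had 76.6, 105, 132 and 118 CPM in healthy and 55.3, 55.0, 70.8, 58.9 and 84.2 in sick mice. Sick mouse 6 reached the healthy range (-0.73, edgeR adjusted p 0.0861). The 4 next smallest p were those of Ect2 (-0.64), the exchange factor of cytokinesis, Cdc25b (-0.75), the phosphatase that activates mitotic kinase, Cdkn2c (-0.52), an inhibitor of cyclin D kinases, and Chaf1b (0.75), a histone chaperone of replication, with edgeR adjusted p of 0.124, 0.151, 0.237 and 0.239.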

How the data were processed

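The deposited table holds raw counts of 24296 genes in 16751 cells. Per the labels' protocols, the authors converted reads with bcl2fastq and Picard by the Drop-seq core computational protocol 1.0.1, merged several sequencing rounds per sample, and aligned with STAR. The labels name GRCh38 in the protocol, and the submitters' processing notes name GRCm38 and mm9. Gene symbols are those of the mouse. The filter kept 16749 cells (200 or more genes, mitochondrial counts of 20% or less). No doublet caller was run, and 960 cells that passed 2 gates were set apart.

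A gate needed at least 2 summed counts of its marker list and a Poisson deviance of at least 6 from the joint's mean. Altogether 4 gate settings were looked at, and this one was taken with cycling shares in view. Here 8 gates held 20 cells in 3 mice per group, against 5 with the stricter gate of 3 counts and deviance 10. The gate of 5 counts and deviance 20 left 3, and that of 2 counts and deviance 4 left 9. The number of gates was thus not highest at the setting taken. Haemoglobin-rich cells passed no other gate and held at least 40% haemoglobin counts. Macrophage, connective tissue and muscle gates served as references. The members, their role groups and the lists were chosen with earlier results of these data known.

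Counts were summed per mouse and tested with edgeR 4.0.16 (quasi-likelihood, filterByExpr, TMM, Benjamini-Hochberg over all tested genes, false discovery rate 0.05; R 4.3.3), with SE taken as the absolute log2 fold change over the square root of F. DESeq2 1.42.0 was an alternative. Shares were compared over mice by two-sided exact permutation in Python 3.11.15 (numpy 2.4.6, scipy 1.17.1, pandas 2.3.3). The mouse was the replicate. Named members are the 4 genes of the cycling rule, any called member, and in each role group the member with the highest count and that with the smallest p in the whole joint. Other members are named as examples chosen after their values were seen. On simulated data the whole-joint test called 50% of 2-fold and 92% of 4-fold changes among 10323 genes. Within gates the test called from 22% of 2-fold changes in mature neutrophils to 59% in erythroblasts. Of 4-fold changes it called from 67% in early erythroid cells to 87% in erythroblasts and eosinophils. Alternatives were other rule minima, thinning, filters, gates and scalings, each mouse left out, and healthy mice 2, 3 and 4 left out, the last chosen after seeing the data. Promoter letters are from RefSeq GRCm38.p6.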

Additional observations from a re-analysis of the deposited data

Results flagged for a closer look

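Of 39 groups of 4 or 5 mice examined, 2 held a mouse whose gap to its nearest neighbour was large for the range of its group, and chance flags about 1 group in 20. Healthy mouse 2 had the lowest share of cycling cells over all cells, 24.5%, against 32.5% to 33.9% in the other healthy mice. Sick mouse 4 had the highest Cdk1 level in the whole joint, 80.6 CPM, against 60.3 to 66.0 CPM in the other sick mice.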

How the results depend on the processing

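Differences in shares are in percentage points, sick minus healthy, and healthy mice 2 to 4 were left out after seeing the data. Over all cells the difference of 1.42 became -2.15 at a rule minimum of 2, -5.03 in cells with 400 genes and -0.629 without healthy mice 2 to 4. In granulocyte progenitors -1.13 became 1.18 at a minimum of 5, 1.80 with a stricter gate, 2.82 without Mki67 in the rule and 1.41 with the gate of 2 counts and deviance 4. Without healthy mice 2 to 4 it was -3.42 in immature neutrophils, 0.184 in early erythroid cells, -6.32 in erythroblasts and -3.72 in eosinophils. In erythroblasts it was -0.655 in cells with 400 genes. The gate of 5 counts and deviance 20 gave -7.20 in immature neutrophils and 13.5 in haemoglobin-rich cells, both past the threshold. Leaving out each mouse gave -0.719 to 2.77 over all cells (below 0 without healthy 2 or sick 4), -4.27 to 2.63 in granulocyte progenitors (above 0 without healthy 2 or sick 6) and -3.71 to 13.6 in the B lineage (below 0 without healthy 1 or healthy 2).

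In the order of gates, erythroblasts over early erythroid cells was 11.3 with a stricter gate (6 of 6 mice), 9.32 without Mki67, and 14.1 to 18.2 with each mouse left out. Haemoglobin-rich over mature neutrophils was 23.2 with a stricter gate (7 of 7 mice), 31.4 with the gate of 5 counts and deviance 20 (7 of 7), 8.29 thinned, 6.47 without Mki67, and 16.9 to 19.2 with each mouse left out. Both passed thinned and without Mki67 (adjusted p 0.0273 each). Both missed the threshold with the stricter gate and without any 1 of the 8 mice they used (adjusted p 0.0547 each), and haemoglobin-rich over mature neutrophils missed it with the gate of 5 counts (0.0625). In all of these the difference was above 0 in every mouse left. The exact permutation p was thus the smallest that their number allows, and these misses cannot tell a weaker difference from fewer mice. Granulocyte progenitors over the B lineage was -17.3 thinned, -2.73 with a stricter gate, -0.368 without Mki67, -8.55 with the gate of 5 counts and -1.71 to 5.02 with each mouse left out (below 0 without healthy 1, healthy 2 or sick 3). The B lineage over eosinophils was -0.178 with a stricter gate, and eosinophils over immature neutrophils 17.9 at a minimum of 2, past the threshold. Immature neutrophils over haemoglobin-rich cells was -1.38 thinned, -2.75 at a minimum of 2, -2.93 with a stricter gate, 4.27 without Mki67 (past the threshold), -7.83 with the gate of 5 counts and -0.798 to 2.15 with each mouse left out (below 0 without healthy 2 or healthy 4).

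In the whole joint DESeq2 called 1 member and leaving out each mouse 0 to 1. Without TMM, erythroblasts had 6 members higher and 11 lower, and immature neutrophils 1 higher and 17 lower against granulocyte progenitors. Members lower were 1 to 2 and 2 to 5 with each mouse left out (2 without healthy 1 or sick 4, and 5 without healthy 2, 3 or 4), and 7 in immature neutrophils without healthy mice 2 to 4. Whole-joint log2 fold changes turned without healthy mice 2 to 4 for Mki67 (0.043), Pcna (0.17), Rrm2 (0.39), Rrm1 (0.16), Cdk1 (0.15) and Nusap1 (0.041). They turned without TMM for Top2a (0.12), Cenpe (0.0089), Pcna (0.019), Rrm2 (0.12), Ube2c (0.10), Cdk1 (0.055) and Nusap1 (0.046). The cause of these changes was not tested. Mice sharing a replicate number were not paired by the labels, and their deviations correlated at 0.17, -0.05 and 0.07. With the replicate block edgeR called 70 genes and 0 members in the whole joint and 0 members in each gate.

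Depth limits these results: cells held a median of 892 counts. Among the 8 gates the widest Wilson 95% interval of a share in 1 mouse had a half-width of 18.1 points, in early erythroid cells, counting error only. Too few mice per group were left to test some gates under stricter gates, 50 cells per mouse or 400 genes: the B lineage, early erythroid cells and mature neutrophils in all of these, granulocyte progenitors and eosinophils with 50 cells or 400 genes, and granulocyte progenitors and erythroblasts with the gate of 5 counts.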
